A study of Homo sapiens with 17 samples.

Results

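Protein-coding genes that span 300 kb or more were followed in HEK293T, an established human line from embryonic kidney, here with an INTS1 protein that could be degraded on demand. The members are all genes typed as protein-coding whose listed log2 gene length corresponds to at least 300 kb. This gave 426 genes, or 3.32% of the 12824 protein-coding genes and part of 14538 genes in all; no expression value entered the choice, but a gene missing from the tables could not be chosen. Of these, 296 spanned 300 to 500 kb, 108 spanned 500 kb to 1 Mb and 22 spanned 1 Mb or more. The median length was 419.7 kb and the longest, MACROD2, spanned 2054 kb.

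Total RNA depleted of ribosomal RNA had been sequenced as stranded libraries, 17 in all, in 6 groups. In the INTS1-AID line both INTS1 alleles carry a miniAID tag, a degron through which auxin sends the protein to the proteasome. Cells left untreated gave 3 libraries of the INTS1-AID line and 3 of the parental line, which has no tag. In the 4 h series, 3 libraries of the INTS1-AID line had received auxin at 500 µM and 2 had not, and in the 12 h series 3 had received the same dose and 3 had not. Both comparisons of total RNA with and without auxin were made within the tagged line, and no parental cells with auxin were used here, so effects of auxin itself and of INTS1 loss cannot be told apart. The sources used here do not say whether the line was grown from a single clone, and nothing says that replicates were separate cultures, so p-values measure the spread between libraries, which may be technical. Changes in newly made RNA at 4 h, from TT-seq, which isolates briefly labelled transcripts, came from the authors' deposited table for loss of INTS1 and of INTS8; the libraries behind them were not used here, and the labels do not state the line, the agent or how INTS8 was removed. These 2, with RNA at 4 h and at 12 h of auxin, are called the 4 loss comparisons. The column that names no subunit was read as INTS1, because its neighbour names INTS8.

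Per library, values were used for the 6 untreated libraries, which held 26294938 to 39321998 reads in genes; the depth of the others is unknown. Of 17 marker genes of HEK293T cells all were listed, and 16 had a mean normalized count of at least 10, the exception being LHX1. Of the markers of other cells, 2 of 7 for blood, 2 of 5 for colon and 0 of 5 for fibroblasts were listed. The summed level of the HEK293T markers ranged from 30902 to 31971 normalized counts in the parental libraries and from 32696 to 33133 in the INTS1-AID libraries. The degron acts on the protein, so the INTS1 transcript is no check of its loss.

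Integrator binds RNA polymerase II soon after it starts, and its endonuclease cuts the nascent RNA, which ends transcription early at many genes and also matures small nuclear RNAs at their far end. INTS1 is a scaffold subunit of the complex, and INTS8 belongs to the module that holds the phosphatase PP2A. A very long gene takes hours to transcribe and consists almost wholly of introns, so its mature RNA depends on polymerases that stay on the template and reach the far end. Genes of this size are rich in neuronal adhesion proteins, ion channels, scaffolds and developmental transcription factors, and several of them lie in common fragile sites, where replication and transcription of long templates meet.

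The members differed from other protein-coding genes in several features that the choice did not use directly, though intron size is tied to length. A member had a median of 26 exon blocks in GENCODE v29, compared with 11 in protein-coding genes under 300 kb. Its longest intron had a median of 114 kb against 9.28 kb. As a share of the gene's span, the longest intron had a median of 24.1% in the members and 27.6% in the shorter genes. Median exonic GC content was 44.3% in the members and 48.6% in the shorter genes. Median transcript length was 5486 bases in the members and 2924.5 bases in the shorter genes. The median level per length, over the untreated libraries, was 88.7 normalized counts per kb of transcript in the members and 345.9 in the shorter genes, so the long genes are, as a group, weakly expressed in these cells. In the 6 libraries the members' median ran from 82.3 to 94.8 normalized counts per kb, and the shorter genes' median from 336.4 to 345.6. Of the 426 members, 402 passed the minimum mean of 10 normalized counts used for the untreated lines. The members lie on every autosome and the X chromosome, with 39 on chromosome 3, 38 on chromosome 7, 36 on chromosome 2 and 1 on chromosome 19. A total of 40 members share exonic bases on the same strand with another GENCODE v29 gene, so their counts could be split or shared, and 3 span less than 300 kb in that release.

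The start of the gene is where Integrator acts, so the promoters of 6 members that changed in the same direction in all 4 loss comparisons are shown. They are the 3 with the largest rise and the 3 with the largest fall in RNA at 12 h, among those with a mean count of at least 100 and a single RefSeq start, on chromosomes from which sequence is shown here. Each sequence runs 5′ to 3′ on the gene's strand from 250 bases before to 50 bases after the start, from RefSeq (GRCh38.p14), with matches on either strand in capitals. The motifs searched were TATAAA and TATATA of the TATA box, GGGCGG of the GC box, the AP-1 site TGACTCA and the cyclic AMP response element TGACGTCA, so that CCGCCC marks GGGCGG on the other strand and overlapping matches merge.
PCDH9: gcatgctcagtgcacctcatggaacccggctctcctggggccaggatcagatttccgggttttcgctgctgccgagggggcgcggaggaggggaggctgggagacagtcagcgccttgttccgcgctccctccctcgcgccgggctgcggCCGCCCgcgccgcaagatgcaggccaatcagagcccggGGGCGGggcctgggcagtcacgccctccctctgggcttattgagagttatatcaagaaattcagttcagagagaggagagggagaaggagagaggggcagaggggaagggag
SLIT2: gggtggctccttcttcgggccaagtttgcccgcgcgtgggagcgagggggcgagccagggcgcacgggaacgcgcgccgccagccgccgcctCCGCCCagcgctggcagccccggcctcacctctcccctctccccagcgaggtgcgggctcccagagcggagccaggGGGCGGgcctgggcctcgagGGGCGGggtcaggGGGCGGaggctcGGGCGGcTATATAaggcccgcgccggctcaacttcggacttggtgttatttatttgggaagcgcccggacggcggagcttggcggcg
RYR2: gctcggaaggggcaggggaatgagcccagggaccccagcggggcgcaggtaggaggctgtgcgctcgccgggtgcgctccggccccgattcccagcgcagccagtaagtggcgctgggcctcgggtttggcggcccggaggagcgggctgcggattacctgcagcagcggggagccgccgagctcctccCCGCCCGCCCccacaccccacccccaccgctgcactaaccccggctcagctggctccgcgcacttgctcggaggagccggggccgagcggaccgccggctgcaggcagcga
KCNQ5: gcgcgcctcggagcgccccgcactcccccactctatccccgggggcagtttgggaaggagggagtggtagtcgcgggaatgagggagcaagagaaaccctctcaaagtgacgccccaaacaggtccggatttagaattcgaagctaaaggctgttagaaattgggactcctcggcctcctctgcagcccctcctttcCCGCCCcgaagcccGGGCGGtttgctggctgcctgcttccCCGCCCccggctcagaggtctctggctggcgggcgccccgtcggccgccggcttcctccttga
GULP1: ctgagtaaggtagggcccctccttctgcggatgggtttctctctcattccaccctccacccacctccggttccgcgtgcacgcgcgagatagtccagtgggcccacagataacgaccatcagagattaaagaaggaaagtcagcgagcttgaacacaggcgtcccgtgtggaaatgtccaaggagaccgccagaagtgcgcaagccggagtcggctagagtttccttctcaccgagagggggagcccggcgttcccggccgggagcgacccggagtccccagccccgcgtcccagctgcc
ST6GALNAC3: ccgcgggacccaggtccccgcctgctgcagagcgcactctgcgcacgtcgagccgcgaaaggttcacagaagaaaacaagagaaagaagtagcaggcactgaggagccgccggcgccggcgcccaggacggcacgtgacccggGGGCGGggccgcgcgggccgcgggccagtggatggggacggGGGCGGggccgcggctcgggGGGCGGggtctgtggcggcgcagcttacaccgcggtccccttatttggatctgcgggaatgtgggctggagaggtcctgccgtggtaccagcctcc
The windows lie at chr13:67230287-67230586 on the minus strand for PCDH9, and on the plus strand at chr4:20251655-20251954 for SLIT2, chr1:237041934-237042233 for RYR2, chr6:72621814-72622113 for KCNQ5, chr2:188291624-188291923 for GULP1 and chr1:76074496-76074795 for ST6GALNAC3. The first 3 genes rose and the last 3 fell. SLIT2 had 5 matches to GGGCGG and was the only one of the 6 with a TATATA match, 30 bases before its start, and GULP1 had no match to any of the 5 motifs. GGGCGG is bound by SP1-type factors; PCDH9 and RYR2 each had 2 matches to it, while KCNQ5 and ST6GALNAC3 each had 3. Their GC content ran from 62.7% in GULP1 to 75.3% in RYR2.

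RefSeq promoters were found for 341 of the 426 members, and 180 members have a single one. Among these 180, GGGCGG was found in 65.6%, TATAAA in 5.00%, TATATA in 3.33%, TGACTCA, the site of AP-1, in 2.22%, and TGACGTCA, the cyclic AMP response element, in 3.33%. Over the 7217 protein-coding genes of the table with a single RefSeq promoter the shares were 75.3%, 5.13%, 1.57%, 2.42% and 3.80%, and over all 22114 genes with one they were 43.0%, 12.7%, 4.47%, 5.12% and 2.01%. Of members higher in all 4 loss comparisons 7 of 10 held GGGCGG, and of those lower in all 4, 4 of 6 did. These matches describe the letters of the windows only.

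After loss of INTS1 or INTS8, more long genes were called lower than higher, and the gap was widest in RNA at 12 h and in INTS1 new RNA. Where a log2 change of at least 1 was also required, the authors' deposited table has the opposite order in RNA at 4 h, with 2.11% of the members higher and 0% lower, and equal shares of 0.980% in INTS8 new RNA. At 12 h, in the authors' deposited table, 178 of 426 members (41.8%) were lower and 53 (12.4%) higher at an adjusted p under 0.05 by DESeq2, while over all genes 22.3% were lower and 21.9% higher. The median log2 change was -0.27 in the members and 0.01 over all 14485 genes tested. In new RNA after INTS1 loss, 107 of 412 members (26.0%) were lower and 41 (9.95%) higher in the authors' deposited table, against 10.7% and 13.3% of all genes. The median log2 change there was -0.21 in the members and -0.01 over all genes. Of protein-coding genes of 100 to 300 kb, 21.4% were lower and 10.3% higher in INTS1 new RNA, with a median log2 change of -0.12. In new RNA after INTS8 loss, the authors' deposited table has 40 of 408 members (9.80%) lower and 20 (4.90%) higher, beside 2.87% and 6.56% of all genes, with a median log2 change of -0.14 in the members and -0.01 over all genes.

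Total RNA at 4 h showed less. Lower values were called for 92 of 426 members (21.6%) in the authors' deposited table and higher ones for 48 (11.3%), whereas 19.2% of all genes were lower and 19.2% higher. The share of lower members over all levels lay near that of all genes and near the 21.5% of shorter protein-coding genes. By level it was 27.8% of the members and 19.7% of shorter protein-coding genes at a mean count of 100 to 1000, 38.8% and 30.1% at 1000 or more, and 2.19% and 2.94% below 100, in the authors' deposited table. Their median log2 change was -0.09, against 0.00 over all genes. The members were not tested as a set in any comparison; the shares and medians describe them beside the other genes. New RNA and total RNA come from different libraries and tests, so the shares called are set side by side without a test between them.

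The median change followed gene length well below 300 kb, though not at every step for INTS8. In the authors' deposited table the 12 h median log2 change of protein-coding genes was 0.16 under 10 kb, 0.01 at 10 to 30 kb, -0.07 at 30 to 100 kb and -0.20 at 100 to 300 kb. Within the members it was -0.26 at 300 to 500 kb, -0.32 at 500 kb to 1 Mb and -0.46 at 1 Mb or more. The share lower at an adjusted p under 0.05 rose from 12.4% under 10 kb to 38.6% at 100 to 300 kb, 41.6% at 300 to 500 kb and 44.4% at 500 kb to 1 Mb, and was 31.8% among the 22 longest members, 5 of which had a mean count of 100 or more. In new RNA after INTS1 loss the median went from 0.04 under 10 kb to -0.21 at 300 to 500 kb and -0.50 at 1 Mb or more in the authors' deposited table. At a mean count of at least 100 it was -0.25 at 500 kb to 1 Mb and -0.28 among the 6 genes of 1 Mb or more. For INTS8 the shortest genes did not have the highest median: it was -0.06 under 10 kb, 0.01 at 30 to 100 kb, -0.03 at 100 to 300 kb, -0.12 at 300 to 500 kb and -0.32 at 1 Mb or more, by the authors' deposited table. For INTS8 the share lower was 4.33% at 100 to 300 kb and 8.07% at 300 to 500 kb in the authors' deposited table. At a mean count of at least 100, 6 genes of 1 Mb or more remained for INTS8, with a median of -0.40. In RNA at 4 h the median went from 0.07 under 10 kb to -0.08 at 100 to 300 kb and -0.16 at 1 Mb or more. The share lower at 4 h did not follow length, with 28.8% at 100 to 300 kb and 21.6% at 300 to 500 kb.

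**Figure D1:**
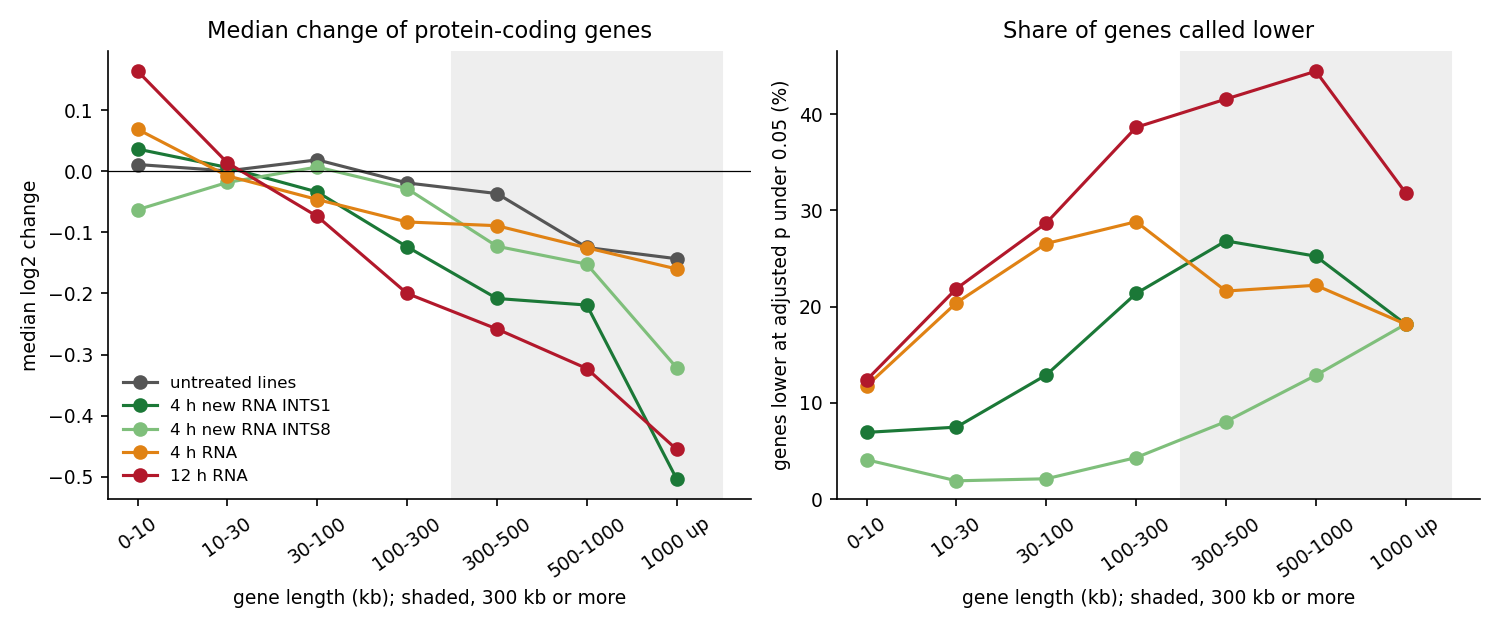
Median log2 change (left) and percent of genes lower at an adjusted p under 0.05 (right) of protein-coding genes in 7 classes of gene length, by comparison; the untreated lines are INTS1-AID against parental cells, the others are the 4 loss comparisons, from the authors' deposited table. At 12 h the median runs from 0.16 under 10 kb to -0.46 at 1 Mb or more.

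Within the members, length made little further difference. Across the 426 members the Spearman correlation of length with the log2 change at 12 h was -0.01, and, of 3 groups by length of equal size, the shortest and the longest genes had medians of -0.27 and -0.28 in the authors' deposited table. Exon number had a weak relation: the correlation was -0.09 over all members and -0.14 over the 277 with a mean count of at least 100, in which, of 3 equal groups, that with fewest exon blocks had a median of -0.19 and that with most -0.44. These correlations are across genes, which share libraries and are not independent. The 3 members just inside the limit were COBL, KMT2C and SIPA1L3, at 300.6 to 301.2 kb, with log2 changes at 12 h of -1.53, -0.39 and -0.39. The 3 protein-coding genes just outside it were SYT16, NUBPL and PCBP3, at 298.8 to 299.8 kb, with -0.33, 0.23 and 0.54, all from the authors' deposited table.

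At 12 h the members were called lower more often than shorter genes at each level of expression and in each of 3 classes of GC content. Among genes with a mean count of 100 to 1000 at 12 h, 48.1% of the members and 27.7% of shorter protein-coding genes were lower in the authors' deposited table, and at 1000 or more the shares were 55.2% and 24.2%. Below a mean of 100 they were 26.8% and 13.7%. By class of GC content the members' share was 36.0%, 44.4% and 57.1% from low to high, and that of the shorter genes 21.4%, 25.3% and 25.7% in the authors' deposited table. At 4 h, among members with a mean of at least 100, 30.8% were lower in the authors' deposited table, close to the 32.9% of genes of 100 to 300 kb at that level.

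The members that rose were fewer, and PCDH9 rose most of those with a mean count of at least 100 in each of the 4 loss comparisons. PCDH9, a protocadherin that mediates cell adhesion, spans 927.6 kb at chr13:66302834-67230445. Before auxin it stood at 3195, 3274 and 2635 normalized counts in parental libraries 1 to 3 and at 3290, 3180 and 3124 in the INTS1-AID libraries, so the untreated groups overlapped. With auxin its RNA was 17.1-fold higher at 12 h (log2 change 4.09, implied SE 0.14, adjusted p = 1.6e-175, DESeq2) in the authors' deposited table. At 4 h its log2 change was 3.76 in RNA, 3.86 in new RNA after INTS1 loss and 2.85 in new RNA after INTS8 loss, again in the authors' deposited table. The difference between new and total RNA at 4 h was not tested.

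SLIT2, a secreted repellent of growing axons, and its receptor ROBO1 both rose. SLIT2 had 6361, 5920 and 7439 normalized counts in the parental libraries and 5185, 4967 and 4591 in the INTS1-AID libraries, where every INTS1-AID library lay below every parental one without passing the test (adjusted p = 0.088, limma). In the authors' deposited table its log2 change was 1.17 (implied SE 0.05) at 4 h and 2.13 (0.09) at 12 h, with 1.24 in INTS1 new RNA and 0.49 in INTS8 new RNA. ROBO1 had a mean of 5488 ± 105.1 normalized counts in untreated INTS1-AID cells (SD, n = 3) and, in the authors' deposited table, log2 changes of 0.44 at 4 h and 1.04 at 12 h. ROBO2, its paralog, went the other way at 12 h, with a log2 change of -1.29 (adjusted p = 0.00085, DESeq2) in that same authors' deposited table.

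A pair of calcium release channels of the endoplasmic reticulum rose in all 4 comparisons. ITPR1, the receptor for inositol trisphosphate, had 1075, 1076 and 1233 normalized counts in the parental and 1125, 1124 and 1147 in the INTS1-AID libraries, which overlap. Its log2 change was 1.66 at 4 h and 1.68 at 12 h in RNA, and 1.79 and 1.26 in INTS1 and INTS8 new RNA, in the authors' deposited table. RYR2, the ryanodine receptor best known from heart muscle, had 427 to 462 normalized counts in the parental and 431 to 472 in the INTS1-AID libraries. In the authors' deposited table it changed by 0.70 at 4 h and 1.98 at 12 h on the log2 scale, and it rose further between the time points (difference 1.28, adjusted p = 2.9e-09, Wald test across all genes). ITPR2, the paralog with 60 exon blocks, had a log2 change of 0.30 at 4 h (adjusted p = 3.5e-05, DESeq2) and 0.07 at 12 h, which did not pass, in the authors' deposited table.

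Other strong risers were CLSTN2, a calsyntenin of synaptic membranes, NAV2, a neuron navigator that binds the cytoskeleton, PRKCA, protein kinase C alpha, and HMCN1, an extracellular matrix hemicentin. Their log2 changes at 12 h in the authors' deposited table were 1.84, 1.34, 1.27 and 0.91. CLSTN2 is weakly expressed, with 77.3 to 93.9 normalized counts in the INTS1-AID libraries. For PRKCA at 4 h the authors' deposited table has a log2 change of 1.18 (implied SE 0.11) in new RNA and 0.22 (0.07) in RNA. The authors' deposited table gives MAGI2, a synaptic scaffold, 1.26 at 4 h and 0.49 at 12 h.

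**Figure D2:**
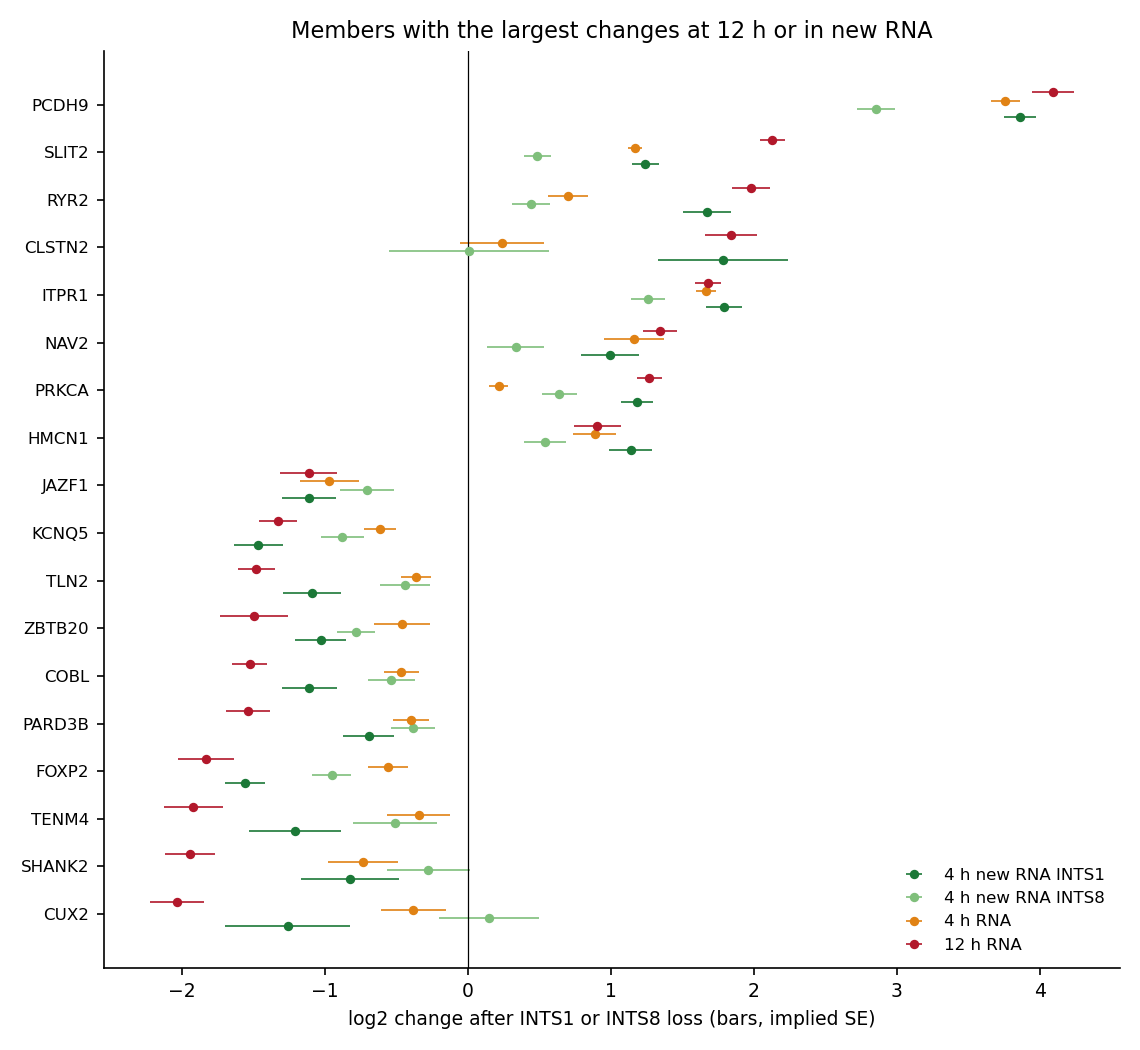
Log2 change after INTS1 or INTS8 loss of 18 members, in 4 comparisons of the authors' deposited table. They had the largest called changes in RNA at 12 h or in INTS1 new RNA at a mean count of at least 100. Bars are the standard errors that the deposited p-values imply. For PCDH9 in RNA at 4 h, where p is listed as 0, the bar is an upper bound. PCDH9 lies between 2.85 and 4.09 in all 4, and CUX2 lies at -2.04 at 12 h, at -1.26 in INTS1 new RNA and at 0.15 in INTS8 new RNA. The mean count of CUX2 in INTS1 new RNA was under 100.

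Many transcription factors fell. FOXP2, a forkhead repressor known for its part in speech circuits, had 733, 744 and 586 normalized counts in the parental and 624, 601 and 653 in the INTS1-AID libraries, so the lines overlapped. In the authors' deposited table its log2 change was -1.56 (implied SE 0.14) in INTS1 new RNA, -0.96 in INTS8 new RNA, -0.56 in RNA at 4 h and -1.83 at 12 h (adjusted p = 1.6e-19, DESeq2). At 4 h its value in new RNA lay further from 0 than that in total RNA, a difference that was not tested. CUX2, a homeobox factor of upper cortical neurons, had the lowest log2 change of the named members at 12 h, -2.04 (implied SE 0.19), in the authors' deposited table. At 4 h it fell in INTS1 new RNA, by 1.26 on the log2 scale (adjusted p = 0.021, DESeq2), and stood at -0.38 in RNA without passing (adjusted p = 0.18, DESeq2), again per the authors' deposited table. Its paralog CUX1, which had 2612 ± 170.6 normalized counts in INTS1-AID cells (SD, n = 3), fell in all 4 comparisons, by 1.15 on the log2 scale at 12 h in the authors' deposited table.

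JAZF1, a zinc finger coregulator, had 174 to 345 normalized counts in the parental and 285 to 325 in the INTS1-AID libraries. In the authors' deposited table its log2 change was -0.97 at 4 h and -1.12 at 12 h; it did not pass the test between the time points (difference -0.15, adjusted p = 0.81, Wald test across all genes), and its new RNA stood at -1.11 after INTS1 loss. ZBTB20, a repressor of the BTB zinc finger family, had -0.47 at 4 h and -1.50 at 12 h in the same authors' deposited table. Of all 35 transcription factors and coregulators among the members, 24 were lower and 2 higher at 12 h, with a median log2 change of -0.70, against medians of -0.27 over the members and 0.01 over all genes, by the authors' deposited table. These and the counts by list that follow stand beside 22.3% lower and 21.9% higher over all genes at 12 h, and no test compares the lists. In RNA at 4 h, 11 were lower and 3 higher in the authors' deposited table (31.4% and 8.57%), against 19.2% and 19.2% of all genes. In INTS1 new RNA, 12 of 34 tested were lower and 2 higher there (35.3% and 5.88%), against 10.7% and 13.3% of all genes. The 2 that rose at 12 h were EBF1, a factor of B cell and neuronal development (1.42), and DACH1, a factor of eye and limb development (0.46), by the authors' deposited table. FOXP1, NFIA, SOX5, SOX6 and TCF12 were among the 24, with log2 changes of -1.03, -0.73, -0.90, -0.77 and -0.66 in the authors' deposited table, whereas TCF4 (0.04) and BACH2 (0.01) did not pass. KLF12, the member of the list with the highest count beside CUX1, had -0.30 at 4 h and -0.93 at 12 h, from the authors' deposited table.

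Of 12 scaffolds of membrane and cytoskeleton, 8 were lower at 12 h (66.7%, against 22.3% of all genes) and 2 higher (16.7%, against 21.9%), with a median log2 change of -0.82 in the authors' deposited table. The largest fall among them was in PARD3B, a polarity protein of the PAR3 family, at -1.54 (implied SE 0.15, adjusted p = 1.4e-22, DESeq2). TNS3, a tensin of focal adhesions, had -0.61 at 4 h and -1.21 at 12 h, and the authors' deposited table gives the ankyrins ANK2 and ANK3, which anchor channels to spectrin, -1.01 and -0.95 at 12 h. DST, dystonin, is the member of the list with the highest count, 10505 ± 346.2 normalized counts in untreated INTS1-AID cells (SD, n = 3), and the authors' deposited table has -0.05 for it at 4 h and -0.95 at 12 h. UTRN, utrophin, and SYNE2, nesprin-2, did not pass at 12 h, at -0.15 and -0.24 per the authors' deposited table. COBL, an actin nucleator that stands outside this list, fell in all 4 comparisons, by 1.53 on the log2 scale at 12 h in the authors' deposited table. TLN2, a talin that links integrins to actin, had -1.09 in INTS1 new RNA there.

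Of 13 neuronal adhesion proteins and synapse organisers, the authors' deposited table has 6 lower (46.2%) and 3 higher (23.1%) at 12 h; the share higher is near the 21.9% of all genes. SHANK2, a scaffold of excitatory synapses, had 162 to 254 normalized counts in the parental and 94.9 to 132 in the INTS1-AID libraries, with no overlap and an adjusted p of 0.11 (limma). It fell by 1.95 on the log2 scale at 12 h (implied SE 0.18) in the authors' deposited table. TENM4, a teneurin of the synaptic cleft, had -0.35 at 4 h and -1.92 at 12 h, and NLGN1, a neuroligin, -0.40 and -1.37, from the authors' deposited table. The 3 that rose in the authors' deposited table were CADM2 (2.18), MAGI2 (0.49) and CADM1 (0.32). MAGI1, the paralog of MAGI2, fell by 0.80 (authors' deposited table). Of 5 cadherins and catenins, 2 rose, PCDH9 and CDH18, and 0 fell; of 11 axon guidance genes 5 rose, namely SLIT2, ROBO1, EPHA5, EPHB1 and UNC5D, and 2 fell, ROBO2 and SLIT3, with a median of 0.63 in the authors' deposited table. UNC5D and CDH18 rest on mean counts of 5 and 12 in the authors' deposited table.

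Signalling genes were near the members' overall shares. Of 29 kinases, phosphatases and phosphodiesterases, 15 were lower and 3 higher at 12 h (median log2 change -0.31), and of 25 regulators of small GTPases 12 were lower and 3 higher (-0.28), in the authors' deposited table. TRIO, an exchange factor for small GTPases, had 6347 ± 224.9 normalized counts in INTS1-AID cells (SD, n = 3) and log2 changes of -0.31 at 4 h and -0.66 at 12 h by the authors' deposited table. PTK2, focal adhesion kinase, had -0.18 and -0.47, and DOCK1, a RAC activator, -0.19 and -0.75, all in the authors' deposited table. TIAM1, another RAC activator, went up, by 0.19 at 4 h and 0.69 at 12 h on the log2 scale of the authors' deposited table. Of 23 ion channels and receptors, 6 were lower and 2 higher, the latter being RYR2 and ITPR1, by the authors' deposited table; the share lower, 6 of 23, is near that of all genes. KCNQ5, a potassium channel of the M current, had 627 to 659 normalized counts in the INTS1-AID and 646 to 772 in the parental libraries. It had -1.47 in INTS1 new RNA, -0.88 in INTS8 new RNA and -1.33 in RNA at 12 h (adjusted p = 6e-22, DESeq2) in the authors' deposited table. GPHN, gephyrin, the anchor of inhibitory receptors, did not pass at 12 h (0.07, authors' deposited table).

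Among housekeeping roles, 9 of 17 membrane traffic genes were lower and 1 higher at 12 h, DNM3, a dynamin, at 1.02, in the authors' deposited table. EXOC4, a subunit of the exocyst, had -0.91 in INTS1 new RNA, -0.13 in RNA at 4 h and -0.76 at 12 h, while LRBA (-0.35) and NBAS (-0.30) fell less and VPS13B (-0.21) did not pass, per the authors' deposited table. Of 14 chromatin and repair genes 8 were lower and 1 higher, with KMT2C, a histone H3 lysine methyltransferase, at -0.39, STAG1, a cohesin subunit, at -0.58 and POLA1, the catalytic subunit of DNA polymerase alpha, at -0.49 in the authors' deposited table. Of 8 ubiquitin pathway genes 4 were lower and 2 higher; NEDD4L, an E3 ligase, had -0.31 and BTBD9, a substrate adaptor, -0.61, from the authors' deposited table. Of 13 RNA-binding and processing genes 4 were lower and 2 higher, which is near the share of all genes in the authors' deposited table. The 2 that rose were NOL4, a nucleolar protein, and FMNL2, a formin of the actin cytoskeleton, which the name of the list does not describe, while CELF2 (-1.01) and MSI2 (-0.61), regulators of splicing and translation, fell; SND1 (0.11) and ASCC3 (-0.09) did not pass, by the authors' deposited table. The 13 lists hold 209 of the 426 members, 14 of them in more than 1 list, and 217 are in none.

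**Figure D3:**
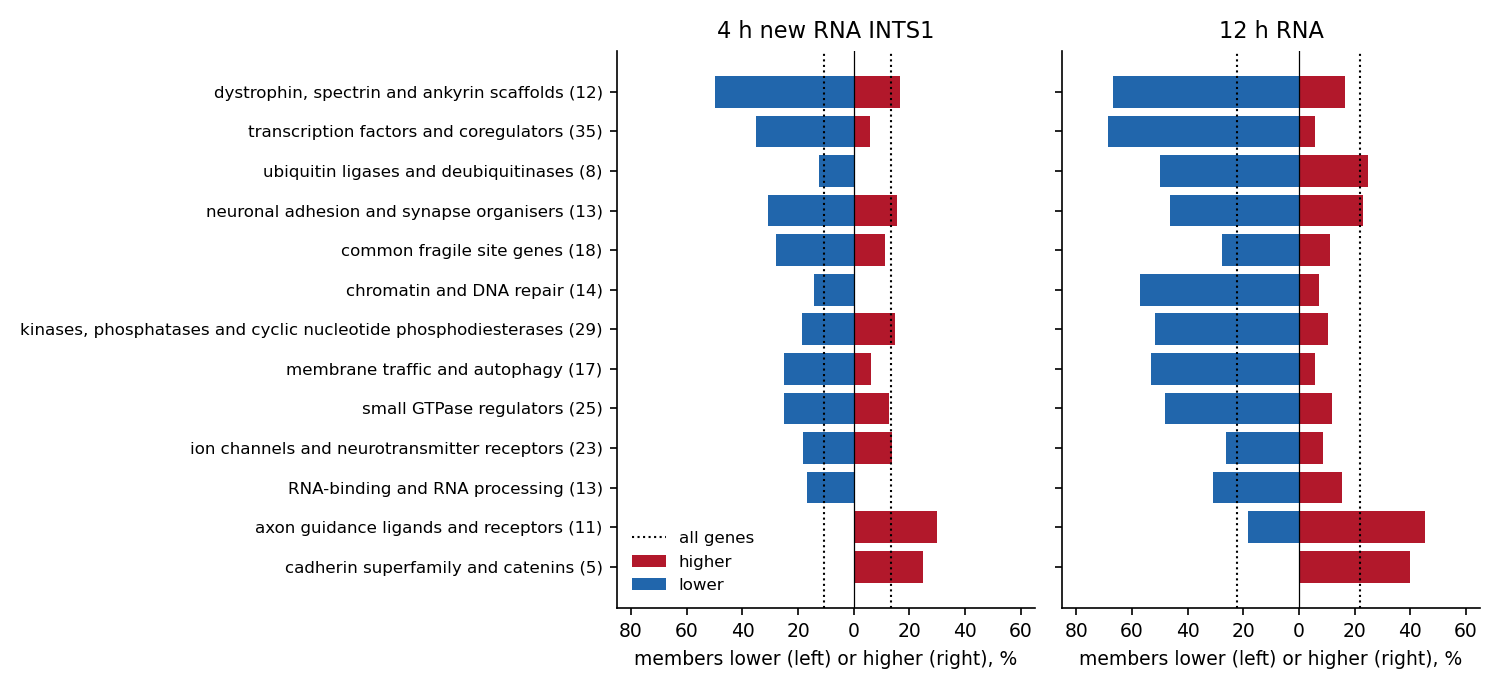
Percent of the members in each of 13 lists by role that were higher (right) or lower (left) at an adjusted p under 0.05, in new RNA after INTS1 loss at 4 h and in RNA at 12 h, from the authors' deposited table; the number tested at 12 h stands in brackets and dotted lines give the shares of all genes. Among transcription factors 24 of 35 were lower at 12 h, and among axon guidance genes 5 of 11 were higher.

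The longest members were a mixed group, and most of them are weakly expressed. MACROD2, a mono-ADP-ribosyl hydrolase at chr20:13995659-16050041, had 33.9 to 63.7 normalized counts in the untreated libraries and passed in none of the 4 loss comparisons. LRP1B, a lipoprotein receptor of 1899.6 kb at chr2:140231423-142131016, had log2 changes of -0.41 and -0.42 in INTS1 and INTS8 new RNA but -0.07 at 4 h and 0.01 at 12 h in RNA in the authors' deposited table. CCSER1, a coiled-coil protein of 1474 kb, rose in all 4, by 0.74, 0.58, 0.78 and 0.72 on the log2 scale of the authors' deposited table. GPC5, a glypican, had 0.80 at 4 h and 0.67 at 12 h; both values are from the authors' deposited table. FHIT, a hydrolase of dinucleotides (-0.49), and AC098650.1 (-0.17) did not pass at 12 h, by the authors' deposited table. Of 18 genes of common fragile sites, 5 were lower and 2 higher at 12 h (27.8% and 11.1%, against 22.3% and 21.9% of all genes), with a median log2 change of -0.36 in the authors' deposited table. The share lower is near that of all genes.

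The falls grew between the time points. The log2 change at 12 h was set against that at 4 h with a Wald z test on the implied standard errors, adjusted over 14460 genes; each time point had its own libraries without auxin. By this test 81 of 426 members (19.0%) were lower at 12 h than at 4 h and 16 (3.76%) higher. Over all genes 8.55% were lower and 6.33% higher. Protein-coding genes of 100 to 300 kb lay close to the members, with 16.2% lower and 3.28% higher. The median difference was -0.20 in the members and -0.03 over all genes. Among members called with a mean count of at least 100, CUX2, TENM4 and FOXP2 had the largest further falls, of -1.66, -1.58 and -1.27. Of the same members CLSTN2, RYR2 and PRKCA had the largest further rises, of 1.60, 1.28 and 1.05 on the log2 scale. PCDH9 (0.33, adjusted p = 0.21, with an upper bound as its 4 h SE) and ITPR1 (0.02, adjusted p = 0.96), by contrast, did not pass this Wald test across all genes; their 12 h and 4 h values lie close together.

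Many calls of the members were shared between comparisons. The same shares over all genes were not computed, so they do not set the members apart from other genes. Over 8306 genes of any length Pearson's r was 0.83 between RNA at 4 h and 12 h. It was 0.88 between INTS1 and INTS8 new RNA. In the authors' deposited table, of the 92 members lower at 4 h, 73 (79.3%) were lower at 12 h, where they made up 41.0% of the 178. Of the 48 higher at 4 h, 32 (66.7%) were higher at 12 h, 60.4% of those 53. Of the 107 members lower in INTS1 new RNA, 88 (82.2%) were lower in RNA at 12 h, and these were 49.4% of the 178. INTS1 and INTS8 shared 29 lower members, which are 27.1% of the INTS1 and 72.5% of the INTS8 calls, and 19 higher members, 46.3% and 95.0% of the calls, in the authors' deposited table. No member was called in opposite directions for INTS1 and INTS8. The directions of RNA at 12 h and of INTS8 new RNA had been chosen by positive correlation with the other comparisons. Agreement in direction was therefore largely set by that choice and is no separate result.

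In all 4 loss comparisons, 17 members (3.99%) were higher and 18 (4.23%) lower, beside 4.45% and 1.31% of all 14538 genes. The shares were not tested, and they rest on the same choice of directions. The 17 were ADGRV1, CADM1, CCSER1, EBF1, EXT1, GPR158, HMCN1, ITPR1, MAGI2, NELL2, PCDH9, PEAK1, PRKCA, ROBO1, RYR2, SIPA1L1 and SLIT2. The 18 were COBL, CUX1, FARP1, FOXN3, FOXP2, GULP1, JAZF1, KCNQ5, LINGO2, NLGN1, RAPGEF4, SAMD12, SLC4A4, ST6GALNAC3, TMEM117, TNS3, TTC28 and ZBTB20. A total of 143 members (33.6%) were called in none, as were 40.9% of all genes. Opposite calls occurred in 4 members, which were named after their values were seen. MAML3, a Notch coactivator, and PDE10A, a phosphodiesterase, were higher at 4 h (0.43 and 0.28) and lower at 12 h (-0.63 and -0.69) in the authors' deposited table. CAMK2D, a calcium-dependent kinase, was higher in INTS1 new RNA (0.41) and lower at 12 h (-0.54), and KSR2, a scaffold of RAF signalling, was higher in INTS8 new RNA (0.76) and lower at 12 h (-0.47), by the authors' deposited table.

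**Figure D4:**
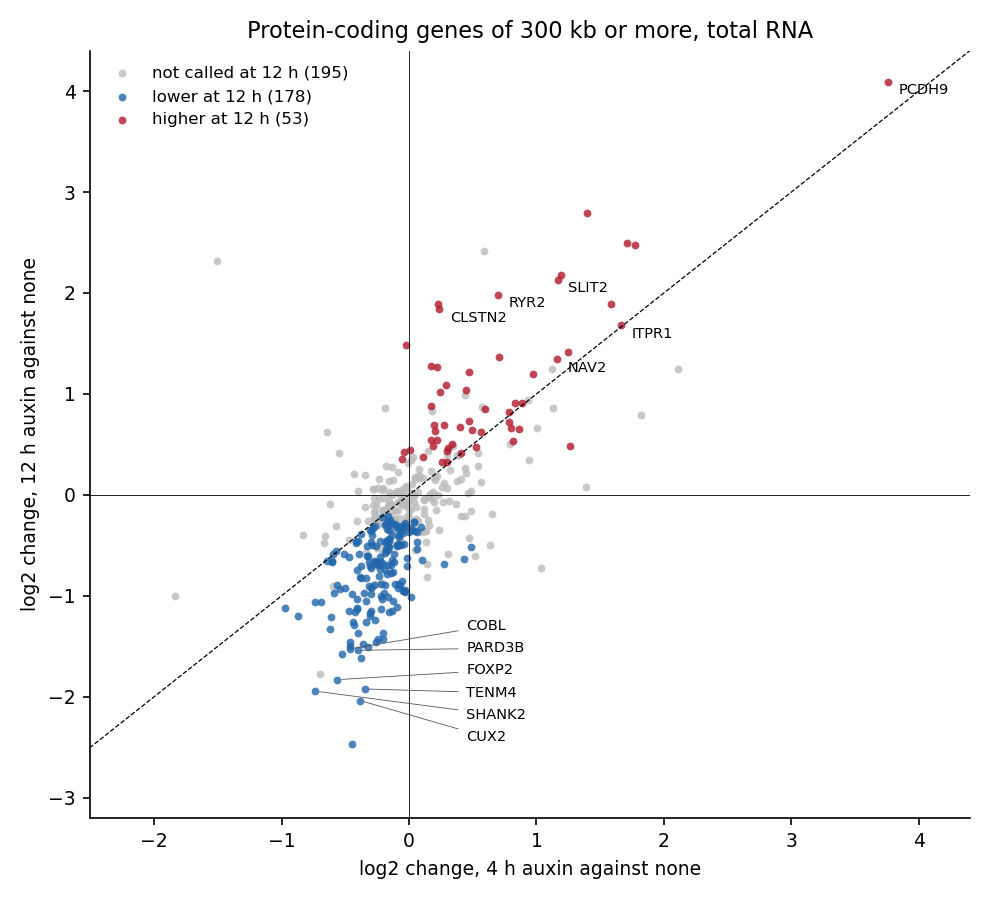
Log2 change in RNA of the 426 members at 4 h (x axis) and 12 h (y axis) of auxin against none, from the authors' deposited table, coloured by the call at 12 h; the dashed line marks equal change, and labels mark the 6 largest rises and falls among members with a mean count of 100 or more. Of the members called lower at 12 h most lie below the dashed line, a side that their choice by the 12 h value favours. PCDH9 (3.76 and 4.09) and ITPR1 (1.66 and 1.68) lie near the line.

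Factors that help polymerase through long genes, none of them members, were measured beside this. Of 53 elongation, termination and topology factors, 24 were lower and 8 higher at 4 h (45.3% and 15.1%, against 19.2% and 19.2% of all genes) and 15 lower and 6 higher at 12 h (28.3% and 11.3%, against 22.3% and 21.9%), with median log2 changes of -0.08 and -0.08 in the authors' deposited table. Of 18 Integrator subunits 9 were higher and 1 lower at 12 h by the authors' deposited table. Their part in the change of the long genes was not tested.

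The untreated lines differed at few long genes. Of 402 members tested, 10 (2.49%) were higher and 10 (2.49%) lower in INTS1-AID than in parental cells at an FDR of 0.05 (limma), against 1.85% and 0.369% of all genes, and the members' median log2 difference was -0.06. The counts depend on single libraries. Without parental library 3, 5.75% of the members were higher and 16.25% lower. Without parental library 2 the shares were 1.24% and 1.99%. Without any of the other 4 libraries in turn, 0% were higher and at most 0.495% lower. Within the members the difference fell with GC content (Spearman correlation -0.28 across 402 genes), and after removal of each library's GC trend 3.98% were higher and 9.70% lower. The part of GC content in this result was not tested further.

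ROBO2, an axon guidance receptor, and FAT3 had the lowest levels in the tagged line relative to the parental one. ROBO2 had 201, 177 and 218 normalized counts in the parental libraries and 47.4, 48.4 and 65.6 in the INTS1-AID libraries, and the groups did not overlap. Its log2 difference was -1.88 (SE 0.17, adjusted p = 0.0078, limma). FAT3, an atypical cadherin, had 733, 734 and 773 normalized counts in the parental and 246, 296 and 222 in the INTS1-AID libraries (log2 difference -1.56, SE 0.12, adjusted p = 0.0059, limma). LRP1B had 1594, 1625 and 1569 in the parental and 1022, 944 and 954 in the INTS1-AID libraries, a log2 difference of -0.71. The others named were ZC3H12B (-1.21), SPOCK3 (-0.94) and KCNB2 (-0.74). ROBO2, FAT3 and LRP1B are members with a different starting level in the tagged line, the only line given auxin.

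The members that were higher in the tagged line included 4 of the 25 tested on chromosome 5. Of the shorter protein-coding genes on chromosome 5, 200 of 526 were higher, a larger share than in the members. On the other chromosomes 6 of 377 members and 28 of 11428 shorter protein-coding genes were higher, where the members had the larger share. These shares were not tested against each other. The median log2 difference on chromosome 5 was 0.35 in the members and 0.53 in the shorter protein-coding genes. On the other chromosomes the medians were -0.08 and 0.00. SPOCK1, a proteoglycan gene of chromosome 5, had 104, 101 and 85.5 normalized counts in the parental and 198, 200 and 200.4 in the INTS1-AID libraries (log2 difference 1.04, SE 0.13, adjusted p = 0.013, limma). WDR70 (0.53), IQGAP2 (0.39) and ADGRV1 (0.34) are on chromosome 5 too. PRKCB (0.71) and SPON1 (0.45), on chromosomes 16 and 11, and C8orf34 (0.91) were higher as well. With chromosome 5 left out of the fit, 0.531% of the members were higher and 1.06% lower. After 4 h of auxin 3 of the 27 members on chromosome 5 were lower and 4 higher, compared with 89 and 44 of the 399 on other chromosomes, in the authors' deposited table. Of shorter protein-coding genes, 20.7% were lower and 20.7% higher on chromosome 5, and 21.5% and 19.9% on the others. Over all genes the shares were 19.2% and 19.2%. The few calls on chromosome 5 were not tested against the others.

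**Figure D5:**
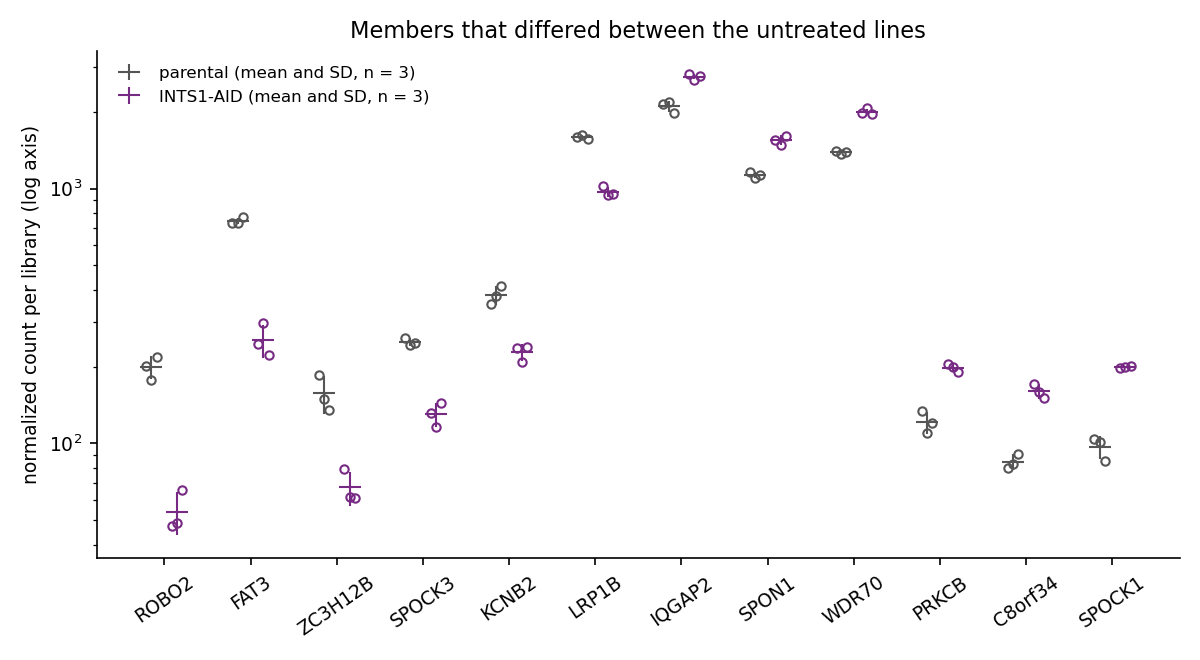
Normalized counts (log axis) of 12 members that differed between untreated parental and INTS1-AID cells, 1 circle per library, with the mean and SD of 3 libraries. For each gene the 3 libraries of the INTS1-AID line lie apart from those of the parental line, from ROBO2 (47.4 to 65.6 against 177 to 218) to SPOCK1 (198 to 200.4 against 85.5 to 104). The genes were chosen by a test on these same libraries, so the separation is no separate result.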

How the data were processed

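RNA had been extracted, depleted of ribosomal RNA and made into stranded (dUTP) libraries with either of 2 kits, according to the labels' protocols, which do not tie a kit to a library. Per the submitters' processing notes STAR 2.7.3a, DESeq2 and the builds hg38 and dm6 were used; the sources used here do not name the counter, its strand setting or its annotation. The signal is a normalized count for each gene in each untreated library, which the authors obtained from reads and a size factor, judging by the steps of the deposited values. Reads were recovered from each library's step, and 100% of values were whole within 0.001 reads. The log2 fold changes, fold ratios, p-values, −log10 adjusted p and score columns (calls, rounded mean counts) are the authors' own, per the file headers. PCDH9 at 4 h, whose deposited p-value is listed as 0, entered at a z of 38.

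The untreated lines were compared with limma 3.58.1 (trend, robust) in R 4.3.3 on log2(normalized count + 1), for 13293 genes with a mean of at least 10, at a Benjamini-Hochberg FDR of 0.05. Normalized values call for a test on the log scale, and a fold there understates changes of low genes. For the 4 loss comparisons the authors' adjusted p under 0.05 was used and an implied SE taken as the log2 change divided by its z. Against the standard errors that the authors' table of the untreated lines lists, the largest relative error was 2.04e-12. Both tests were checked on simulated data. A deposited log2 expression column equalled the level without auxin at 4 h (median error 0.000447 over 5431 genes) and the denominator of INTS1 new RNA (0.000264 over 1443). For INTS8 it equalled the numerator (0.000244 over 1458), and at 12 h neither, so those 2 directions were taken from their positive correlation with the others (Pearson's r over 8306 genes from 0.68, between 12 h RNA and INTS8 new RNA, to 0.88, a description across genes).

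Alternatives were other pseudocounts and filters, each library left out, the replicate block, count tests on the recovered reads with edgeR 4.0.16 or with DESeq2 1.42.0, other scalings, thresholds and length limits, and, chosen after seeing the data, members that share no exon. Named members were, per comparison, the 6 largest rises and 6 largest falls at a mean count of at least 100, the 10 longest measured, 3 on either side of 300 kb and 2 per list; some of these are not reported here. The members and lists were chosen with earlier results of these data known. Exon, intron and GC values come from GENCODE v29 (426 of 426 members matched) and promoters from RefSeq. Every column with a library's values was matched to a sample.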

Additional observations from a re-analysis of the deposited data

Results flagged for a closer look

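The members' response differed between the 4 h and the 12 h series, by the Wald test on the implied standard errors with Benjamini-Hochberg adjustment over all genes. The authors' deposited table supplied both log2 changes. Of 426 members, 19.0% were lower and 3.76% higher at 12 h than at 4 h, where 8.55% and 6.33% of all genes were. Among protein-coding genes of 100 to 300 kb the shares were close to those of the members, at 16.2% and 3.28%. The largest further falls among members with a mean count of at least 100 were in CUX2 (-1.66), TENM4 (-1.58), FOXP2 (-1.27), SDK2, an immunoglobulin-type synaptic adhesion protein (-1.22), SHANK2 (-1.21) and NRCAM, a neuronal adhesion protein (-1.19). The largest further rises were in CLSTN2 (1.60), RYR2 (1.28), PRKCA (1.05), SLIT2 (0.96), DNM3 (0.77) and EPHB1, an ephrin receptor (0.75). The 2 series differ in time and in their libraries, which cannot be told apart.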

How the results depend on the processing

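For the 4 loss comparisons the threshold, the minimum mean count, the length limit and its source, the centring and the members counted were varied; values per library were not used there. Centring on protein-coding genes kept every share and moved the medians by 0.01 to 0.02, for INTS1 new RNA to -0.19. With a log2 change of at least 1 also required, the authors' deposited table leaves 3.64% of the members higher and 5.58% lower in INTS1 new RNA, 0.980% and 0.980% in INTS8 new RNA, 2.11% and 0% in RNA at 4 h, and 5.16% and 10.8% in RNA at 12 h. At an adjusted p under 0.01 the INTS8 shares were 2.94% higher and 5.15% lower. With limits of 200 kb and 500 kb the INTS8 median was -0.10 and -0.19, and with 500 kb the 12 h median was -0.34. The shares and medians of members that share no exon with another gene, a setting chosen after seeing the data, moved by less than 1.5 times in the 4 loss comparisons and between the untreated lines.

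The count of members that differ between the untreated lines is not stable. Leaving out 1 library gave 0% to 5.75% higher and 0% to 16.25% lower, the upper values being those without parental library 3. The replicate block gave 0% higher and 0.498% lower; same-numbered libraries did not deviate together (correlations -0.07, 0.00 and -0.11), so the numbers do not pair them. Library totals as scaling gave 1.24% higher and a median of -0.12. Without chromosome 5 the shares were 0.531% and 1.06%, with the GC trend removed 3.98% and 9.70% (median -0.12), and with DESeq2 on recovered reads 4.05% and 6.33%. Limits of 200 kb and 500 kb gave 1.26% and 4.92% lower and medians of -0.048 and -0.13. An FDR of 0.01 left 0% and 0.498%, and a log2 difference of at least 1 left 0.995% and 0.746%. Beyond the number of libraries left out and genes tested, the cause of these shifts was not tested. Among named members, 76 of 201 values for the untreated lines lost the call and 0 changed direction, whereas for the loss comparisons 1 of 24 did in INTS8 new RNA, 1 of 24 between 12 h and 4 h, and none of 24 in each of the other 3.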
